A study of Mus musculus with 60 samples.

Results

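The comparison described here is that of liver from mice exposed to 56Fe ions with liver from mice exposed to 28Si ions, collected 4 months after irradiation. Its members were chosen by their labels: the 3 libraries of the 56Fe group and the 3 of the 28Si group at 4 months, which are 6 of the 60 samples of the series. All mice were male C3H/HeNCrl, 8 to 10 weeks old at exposure, and each irradiated mouse received 0.2 Gy to the whole body, as 56Fe at 0.6 GeV per nucleon or as 28Si at 0.35 GeV per nucleon. The 3 control mice of the same time were not irradiated, and 3 mice given 16O at 1 GeV per nucleon were used only to estimate the spread and as a side reference. RNA came from the left liver lobe, 1 library per mouse, after depletion of ribosomal RNA. The ions, with their different energies, were given to different mice, so ion, energy and any feature of an exposure or collection session cannot be told apart, and the hour of collection is not given in the sources used here.

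56Fe and 28Si are heavy charged particles of the galactic cosmic radiation that deposit dense tracks of energy in tissue. Many liver transcripts follow the time of day: the activators CLOCK and BMAL1 (gene Arntl) bind E-box elements of their target genes, PER and CRY proteins repress them, and D-box and ROR-element factors form secondary loops. The liver also switches gene sets between feeding and fasting, with sterol and fatty acid synthesis favoured after meals and fat oxidation, FGF21 and PDK4 favoured without food. Small noncoding RNAs such as mitochondrial transfer RNAs, small nucleolar RNAs and Y RNAs are made in every cell and are shorter than most fragments of an ordinary RNA library.

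A gene was counted as different when the adjusted p of limma was at most 0.05 and the fold at least 2, and it is called higher or lower in 56Fe when the adjusted p alone was at most 0.05. Of 11620 genes tested, 47 were counted as different between the ions, a background share of 0.404%, with 13 higher and 34 lower in 56Fe. At the adjusted p alone, 47 genes were higher (0.404%) and 67 lower (0.577%). The values of the 3 mice on each side did not overlap for any of the 47 genes, against 17.8% of all genes tested. For orientation, the same rule counted 38 genes between 56Fe and the controls (0.327%) and 14 between 28Si and the controls (0.12%), and these comparisons share libraries with the one between the ions. The 4-month libraries held 11412665 to 40568208 mapped read pairs. Transcripts accounted for 79.0 to 84.3% of the pairs in the 56Fe libraries but for 73.3%, 56.0% and 82.0% in 28Si replicates 1, 2 and 3, and 80.0 to 84.7% in the control and 16O libraries, so 28Si replicate 2 stood apart. With values as deposited, which moved the median of all genes by 0.16 on the log2 scale, 43 genes were higher and 28 lower in place of 13 and 34. Without 28Si replicate 2 the count fell to 15 genes, and without 28Si replicate 1 it was also 15. Without 56Fe replicate 1, 2 or 3 it was 23, 17 or 29. With the percentage of pairs on transcripts as a covariate it was 14, of which 11 were among the 47.

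Among the genes counted as different, those with the largest differences were short noncoding RNAs, all higher in the 28Si livers. Of 23 tested genes of at most 150 bases, 10 were called lower in 56Fe and 0 higher, and 20 lay below 0. Gm25835 and Gm24336 were higher in 56Fe, by 3.09 and 3.00 on the log2 scale, but not called (adjusted p = 0.096 and 0.071). The most abundant of the 23, Gm24265 and Gm24407, differed by only -0.26 and -0.13. Some of the 23, mt-Tm and mt-Tl1 among them, passed the filter of 0.5 RPKM in 3 libraries through the 28Si livers alone and so had to differ, and the counts are a description. In each of the other length classes, from 150 bases up, the median difference was between -0.05 and 0.11 on the log2 scale. Of the 6 short RNAs that met the rule for naming, 5 are shown here because the difference rests on so few bases. The sequences are from the GENCODE M21 annotation of GRCm38, written 5′ to 3′ as DNA. Capitals mark the anticodon in the transfer RNAs, TGATGA and CTGA stretches (the letters of the C and D boxes) in the small nucleolar RNA, and in the Y RNAs the GGTCCGA they share near the 5′ end and the terminal run of T.
mt-Tm: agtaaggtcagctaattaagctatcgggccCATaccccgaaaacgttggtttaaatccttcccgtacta
mt-Tg: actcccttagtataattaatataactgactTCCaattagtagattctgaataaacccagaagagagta
Snord104: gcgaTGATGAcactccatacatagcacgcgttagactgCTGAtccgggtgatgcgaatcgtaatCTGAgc
Rny1: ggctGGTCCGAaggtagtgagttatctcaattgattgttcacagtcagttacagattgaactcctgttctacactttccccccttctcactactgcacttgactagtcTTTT
Rny3: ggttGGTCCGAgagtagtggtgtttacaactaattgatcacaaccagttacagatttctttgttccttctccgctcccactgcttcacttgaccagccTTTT

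mt-Tm, the mitochondrial transfer RNA for methionine at chrM:3845-3913, was listed at 0 RPKM in all 3 56Fe livers, while the 28Si livers held 34.9, 44.99 and 53.7 RPKM. An estimated 58, 60 and 83 read pairs stood behind these 28Si values. It was also listed at 0 in every control and 16O library of 4 months, so no fold is given, and since it passed the filter through the 28Si livers alone its p-value is no evidence and is not given. mt-Tg, the transfer RNA for glycine at chrM:9391-9458, was at 0, 0 and 1.57 RPKM in 56Fe and at 28.7, 35.8 and 44.7 RPKM in 28Si (adjusted p = 0.0051). mt-Tv, for valine, was listed at 0 in the 3 56Fe livers and at 1.203, 3.00 and 5.18 RPKM in 28Si, and mt-Tl1, for leucine, at 0 and at 1.11, 1.38 and 1.19 RPKM, but these rest on an estimated 2 to 8 pairs per 28Si library. Of the 22 mitochondrial transfer RNAs in the table, 7 were tested and 4 called lower in 56Fe, against 0.577% of all genes tested. No 56Fe library overlapped a 28Si library for any of these 4, against 17.8% of all genes without overlap. However, mt-Tm, mt-Tl1 and mt-Tv met the filter only with the 28Si livers, mt-Tv being above 0 elsewhere only in control replicate 2 (0.757 RPKM). Their calls and lack of overlap are therefore a description and no evidence.

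Snord13, a C/D-type small nucleolar RNA, measured 18.2, 20.9 and 36.5 RPKM in 56Fe and 129, 197 and 195 RPKM in 28Si. It was 2.99 ± 0.28 (SE) lower in 56Fe on the log2 scale, a 7.92-fold difference (adjusted p = 4.1e-04). Snord104, on chromosome 11, was at 0, 0 and 18.4 RPKM in 56Fe and at 69.3, 107 and 101 RPKM in 28Si (adjusted p = 0.035). The call for Snord104 was lost, with adjusted p up to 0.14, without any 28Si replicate or without 56Fe replicate 1 or 2. The Y RNAs Rny1 and Rny3, which bind the Ro60 protein, lie near each other on chromosome 6. Rny1 measured 5.03, 3.70 and 8.12 RPKM in 56Fe and 33.7, 24.9 and 34.7 RPKM in 28Si, and Rny3 measured 10.03, 9.15 and 16.8 against 73.2, 61.4 and 87.2 RPKM. Their folds were 6.37 and 7.05 (adjusted p = 5.0e-04 and 9.0e-05), and the calls of Snord13, Rny1 and Rny3 stayed past the threshold in each of the 12 fits without 1 library. With the percentage of pairs on transcripts as a covariate they also stayed. Against the controls, 28Si stood 2.89 (Snord13), 2.46 (Rny1) and 2.18 (Rny3) higher on the log2 scale, while 56Fe differed by -0.10, -0.21 and -0.63. All 6 RNAs were named by a rule that required no overlap between 56Fe and 28Si. In each of them the lowest 28Si liver was also above the highest of the control and 16O livers.

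**Figure D1:**
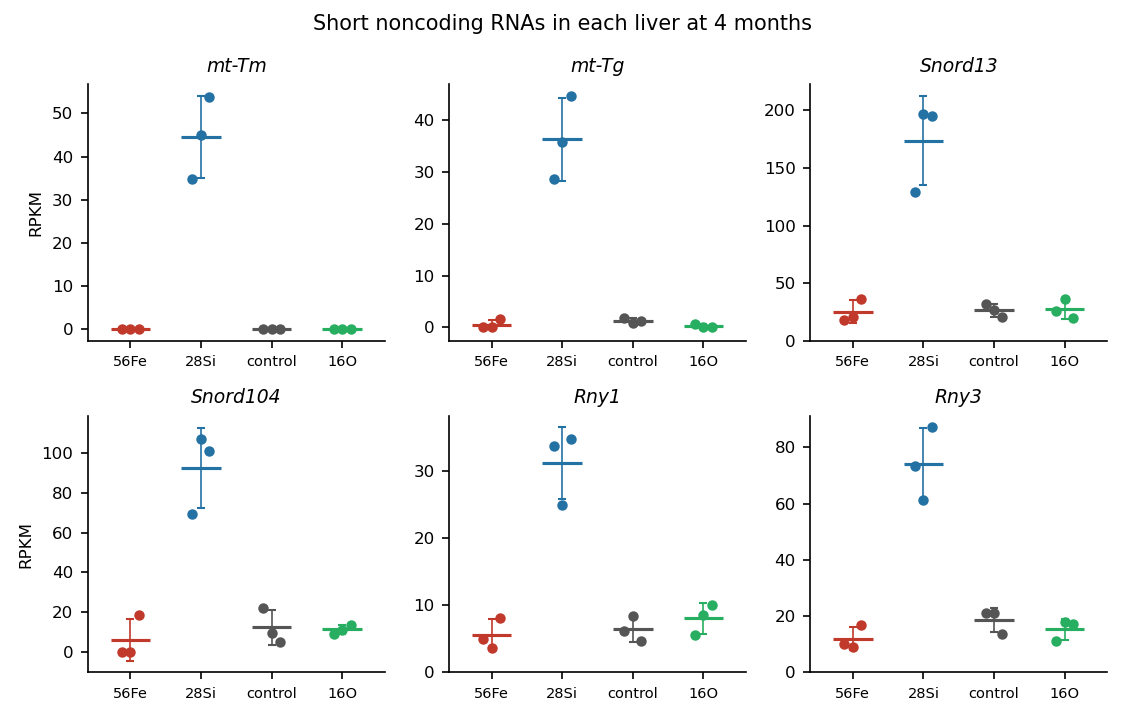
RPKM of 6 short noncoding RNAs (vertical axis, linear) in each of the 3 livers of the 56Fe, 28Si, control and 16O groups at 4 months. Points are mice, horizontal lines means and bars the SD over 3 mice. The 28Si points of Snord13 sit between 129 and 197 RPKM, above all other groups.

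The 56Fe minus 28Si difference of mt-Tm, Snord13, Rny1 and Rny3 was also below 0 at 1, 2 and 9 months. However, levels in 28Si overlapped those of other groups at 1 month for mt-Tm, Snord13 and Rny3. Those of Rny1 overlapped at 2 months, with 4.70 RPKM in 28Si replicate 1 against 7.45 in 16O replicate 3. mt-Tm reached 74.7 RPKM at the highest and averaged 57.9 in the 28Si livers of 1 month, was at 62.0 to 144 at 2 months and 26.5 to 303 at 9 months, and at 0, 0.609 and 18.1 at 12 months. In the 56Fe livers it reached 14.4 RPKM at 1 month and 27.5 at 2 months and was listed at 0 in the 3 libraries of 9 months. Controls held 27.4 to 41.7 RPKM at 1 month. The test of the difference at 4 months minus the mean of the others did not pass the threshold, with adjusted p = 0.23 for mt-Tm, 0.57 for Snord13, 0.70 for Rny1 and 0.84 for Rny3. At 12 months the 56Fe minus 28Si difference lay between -0.29 and 0.37 on the log2 scale for mt-Tm, Snord13, Rny1 and Rny3.

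Genes of the daily clock and its outputs formed the second group, and here the 56Fe livers stood apart. Among 10 clock repressors tested, 2 were called lower in 56Fe and 0 higher. Of 27 clock-controlled liver genes, 6 were called lower and 2 higher, with a median difference of -0.23 on the log2 scale against 0.004 over all genes. Over all genes tested, 0.577% were called lower and 0.404% higher. Ciart, a repressor of CLOCK and BMAL1 on chromosome 3, measured 0.451, 0.724 and 0.955 RPKM in 56Fe and 3.20, 1.72 and 2.83 RPKM in 28Si. It was lower in 56Fe by 3.70-fold (log2 -1.89 ± 0.38 SE, adjusted p = 0.039). Per3, a period gene, measured 0.784, 1.41 and 1.49 RPKM in 56Fe and 2.37, 2.10 and 3.44 in 28Si, a 2.33-fold difference (adjusted p = 0.028). Usp2, a deubiquitinating enzyme with a strong daily rhythm, measured 0.2998, 0.321 and 1.01 against 2.00, 1.79 and 3.13 RPKM (4.56-fold, adjusted p = 0.028). In all 3 genes every 56Fe mouse was below every 28Si mouse, and 17.8% of all genes tested had no overlap in either direction. The list counts moved with the processing: of the clock-controlled genes, 1 was called lower with values as deposited, 2 in a fit of all 60 libraries, and 0 with the percentage of pairs on transcripts as a covariate.

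Wee1, a kinase that holds back mitosis, was 2.52-fold lower, and Coq10b, which binds coenzyme Q, was 2.20-fold lower. Nampt, the rate-limiting enzyme of NAD+ salvage, measured 13.3, 12.6 and 14.04 RPKM in 56Fe and 20.7, 17.5 and 24.2 in 28Si (1.73-fold, adjusted p = 0.0048), and its call was kept in each of the 12 fits without 1 library. Upp2, a uridine phosphorylase, and Lpin1, a phosphatidate phosphatase, were 1.90- and 1.72-fold lower. Insig2, which retains the sterol sensor SCAP in the endoplasmic reticulum, measured 171, 179 and 138 RPKM in 56Fe and 72.3, 52.1 and 77.3 in 28Si (2.17-fold higher in 56Fe, adjusted p = 0.0051). Elovl3, a fatty acid elongase, measured 165, 126 and 93.9 against 53.8, 42.9 and 51.6 RPKM (2.26-fold higher). The calls of Insig2 and Nampt held without any 1 library, whereas those of Ciart, Per3, Usp2, Wee1, Coq10b, Upp2, Lpin1 and Elovl3 were each lost without 28Si replicate 1, 2 or 3 or 56Fe replicate 1 or 2. Those of Ciart, Upp2 and Lpin1 were also lost without 56Fe replicate 3, and that of Upp2 without control replicate 1 (adjusted p up to 0.164). With the percentage of pairs on transcripts as a covariate, the calls of Insig2 (adjusted p = 0.063) and Nampt were lost too. That of Nampt was also lost with values as deposited and in the fit of all 60 libraries (adjusted p = 0.161).

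The activators Arntl and Clock went the other way but missed the threshold. Arntl measured 2.35, 2.64 and 1.27 RPKM in 56Fe and 0.461, 0.727 and 0.427 in 28Si, a difference of 1.595 ± 0.40 (SE) on the log2 scale with adjusted p = 0.072. Clock measured 9.86, 10.96 and 8.87 against 6.66, 5.01 and 6.48 RPKM (adjusted p = 0.063). The groups did not overlap for either gene, as for 17.8% of all genes tested. Of the other repressors, Per2 (-0.71, adjusted p = 0.051), Per1 (-0.85, adjusted p = 0.38) and Nr1d1 (1.22, adjusted p = 0.097) were not called. Dbp, Tef and Hlf, the D-box activators, had differences of -0.29, -0.43 and 0.22 and were not called either. Side by side with the controls, Arntl was 2.04 higher in 56Fe and 0.45 higher in 28Si on the log2 scale, and Per3 was 1.28 lower in 56Fe and 0.06 lower in 28Si.

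**Figure D2:**
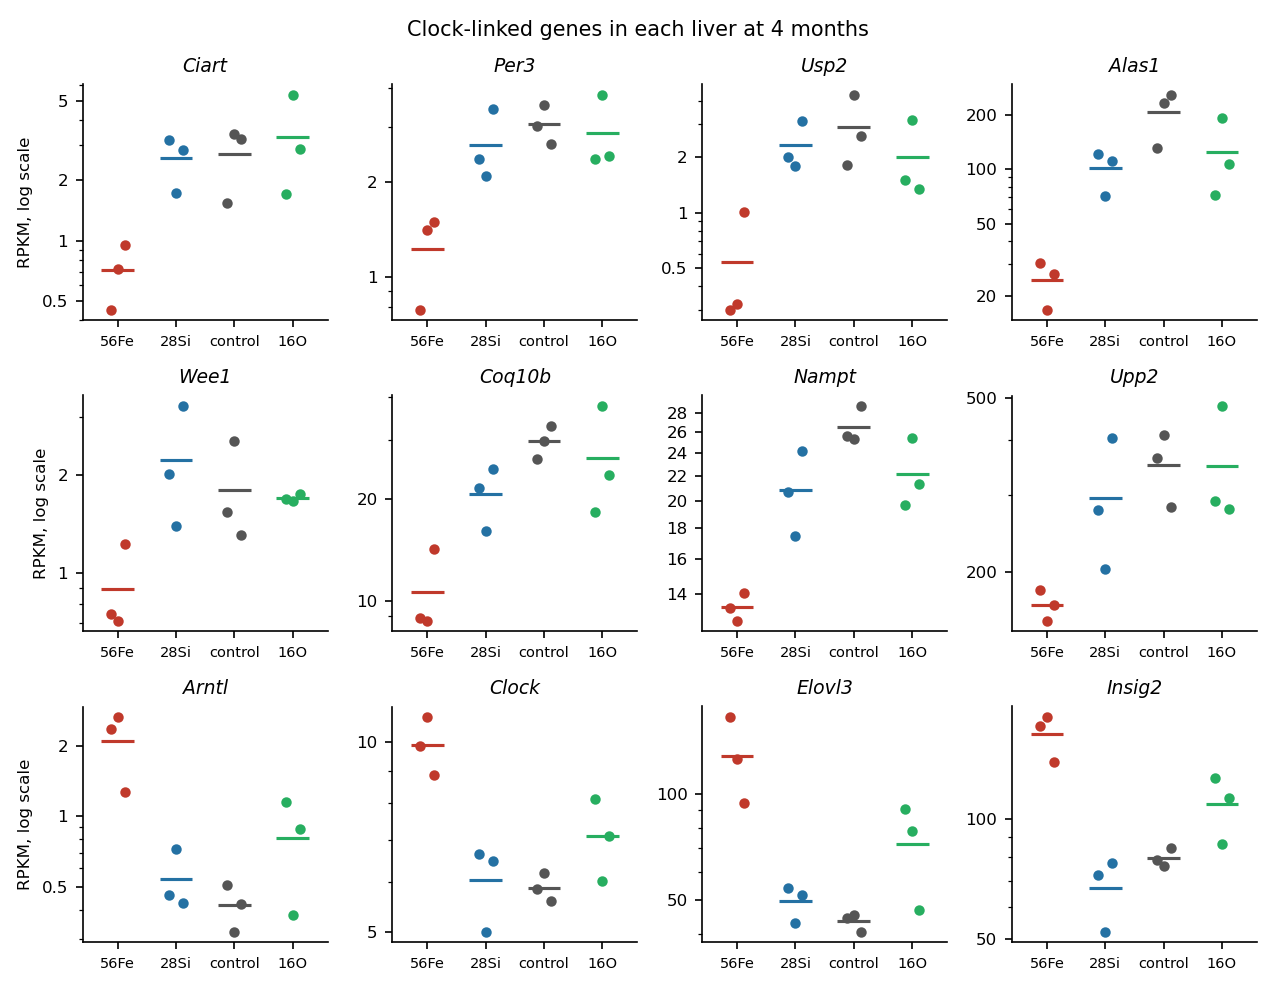
RPKM on a log axis of 12 genes under the heading clock-linked in each liver at 4 months, by group. Alas1 was counted with the haem synthesis genes and was not on the clock lists. Points are mice and lines group means over 3 mice. Every 56Fe point lies below every 28Si point in the upper 8 panels, from Ciart to Upp2, and above in the lower 4, from Arntl to Insig2. The panels show chosen genes that all lack overlap, as did 17.8% of all genes tested. The clock genes Per1, Per2, Nr1d1, Dbp, Tef and Hlf, which were not called, are not shown.

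The promoters of the called clock genes were searched for the E-box CACGTG and the D-box TTATGTAA on both strands, in the 300 bases that RefSeq (GRCm38.p6) gives from 250 before to 50 after each start. Of the 10 called genes, 8 had a promoter entry, 2 of them held an E-box and 2 a D-box. Over all 32851 promoters, 7.15% held the E-box and 0.938% the D-box. These shares are per promoter, while the counts above are of genes, of which Insig2 had 3 entries and Upp2 had 2. Insig2, Lpin1, Nampt, Upp2 and Usp2 had an entry but neither motif. The 3 promoters with a match are shown, with each match in capitals. That of Ciart is chr3:95882179-95882478 (minus strand), with 3 E-boxes. That of Per3 is chr4:151044616-151044915 (minus strand), with 2 D-boxes, and that of Coq10b is chr1:55052520-55052819 (plus strand), with 1 of each.
Ciart: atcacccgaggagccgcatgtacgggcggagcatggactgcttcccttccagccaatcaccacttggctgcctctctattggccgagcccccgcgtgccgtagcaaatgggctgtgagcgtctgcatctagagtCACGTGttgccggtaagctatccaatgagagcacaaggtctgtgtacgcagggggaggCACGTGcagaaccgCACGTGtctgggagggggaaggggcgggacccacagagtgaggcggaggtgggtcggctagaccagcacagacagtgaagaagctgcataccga
Per3: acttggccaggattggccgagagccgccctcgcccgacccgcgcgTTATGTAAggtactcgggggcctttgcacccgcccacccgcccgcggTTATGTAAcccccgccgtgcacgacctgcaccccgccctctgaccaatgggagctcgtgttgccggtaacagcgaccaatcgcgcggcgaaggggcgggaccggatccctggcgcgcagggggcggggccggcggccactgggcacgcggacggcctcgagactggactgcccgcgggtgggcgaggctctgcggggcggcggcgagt
Coq10b: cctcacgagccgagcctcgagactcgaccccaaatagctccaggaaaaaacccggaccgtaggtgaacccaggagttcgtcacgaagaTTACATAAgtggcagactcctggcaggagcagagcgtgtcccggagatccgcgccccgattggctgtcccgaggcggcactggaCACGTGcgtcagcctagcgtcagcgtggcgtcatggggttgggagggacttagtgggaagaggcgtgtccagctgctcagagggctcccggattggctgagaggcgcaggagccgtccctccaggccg

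Genes of haem, sterol and bile acid metabolism differed in part. Alas1 (chr9:106233455-106248654), the rate-limiting enzyme of haem synthesis, measured 30.3, 16.8 and 26.2 RPKM in 56Fe and 121, 71.3 and 110.5 in 28Si. It was 4.65-fold lower in 56Fe (log2 -2.22 ± 0.34 SE, adjusted p = 0.011), and the call was lost without 28Si replicate 1 or 56Fe replicate 2 (adjusted p up to 0.071). The call was also lost in the fit of all 60 libraries (adjusted p = 0.069) and with the percentage of pairs on transcripts as a covariate (adjusted p = 0.102). Alas1 was the only one of 8 haem synthesis genes called, the others lying between -0.11 and 0.18 on the log2 scale. Controls held 207 ± 66.7 RPKM of Alas1 (SD, n = 3), so both ions were below them, by 3.04 for 56Fe (adjusted p = 0.0018) and 0.82 for 28Si (adjusted p = 0.34) on the log2 scale.

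Of 25 cholesterol synthesis genes, 23 lay below 0, with a median of -0.38 on the log2 scale. Lss (-0.89, adjusted p = 0.13), Fdps (-0.79, adjusted p = 0.086) and Mvd (-0.72, adjusted p = 0.26) did not overlap between the groups but missed the threshold. A lack of overlap was found in 17.8% of all genes tested. Aacs, which makes acetoacetyl-CoA in the cytosol for lipid synthesis, was 2.83-fold lower in 56Fe, at 17.4, 14.4 and 21.7 RPKM against 43.6, 34.1 and 59.4 (adjusted p = 0.0039). Thrsp, a lipogenic nuclear protein, was 2.56-fold lower, at 168, 106 and 119 against 263, 303 and 316 RPKM (adjusted p = 0.0051). Both calls held without any 1 library. That of Thrsp was lost in the fit of all 60 libraries (adjusted p = 0.161) and with the percentage of pairs on transcripts as a covariate. Thrsp was the only call among 22 genes of fatty acid and triglyceride synthesis, whose median was -0.17. Cyp7a1, the rate-limiting enzyme of bile acid synthesis, measured 27.8, 23.1 and 36.1 RPKM in 56Fe and 96.8, 59.1 and 82.3 in 28Si (3.06-fold lower, adjusted p = 0.035). Abcb4, the canalicular phospholipid exporter, was 1.38-fold higher in 56Fe, and Nr0b2, which represses Cyp7a1, differed by 0.87 (adjusted p = 0.067). The calls of Cyp7a1 and Abcb4 were lost without any 1 of the 6 irradiated livers, with adjusted p up to 0.142 and 0.193, and that of Abcb4 also without control replicate 2 or 3. Both were lost too in the fit of all 60 libraries (adjusted p = 0.491 and 0.186), without a filter, with the replicate block and with the percentage of pairs on transcripts as a covariate.

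Genes of the fasting response were higher in 56Fe in part. Fgf21, a hormone the liver secretes on fasting, measured 4.41, 7.58 and 6.70 RPKM in 56Fe and 1.31, 1.09 and 3.24 in 28Si, a 3.13-fold difference (log2 1.64 ± 0.35 SE, adjusted p = 0.049). Its call was lost without 28Si replicate 1 or 2, any 56Fe or control replicate or 16O replicate 2 (adjusted p up to 0.188). Of 29 PPARα targets, 23 lay above 0, with a median of 0.29, and Fgf21 alone was called. Pdk4, which shuts off pyruvate oxidation, measured 1.26, 1.68 and 1.09 RPKM against 0.429, 0.282 and 0.616 RPKM (adjusted p = 0.065). Ppp1r3c, a glycogen-targeting subunit of protein phosphatase 1, measured 21.2, 28.9 and 25.1 against 11.6, 9.27 and 15.8 RPKM (1.85-fold higher, adjusted p = 0.024), and was the only call among 16 glycogen genes. Its call was lost without 28Si replicate 1 or 2 or 56Fe replicate 2 or 3 (adjusted p up to 0.116). Against the controls, Ppp1r3c was 1.74 higher in 56Fe and 0.85 higher in 28Si. Igfbp1, an insulin-repressed gene, differed by 2.14 without a call (adjusted p = 0.11), and 0 of 20 insulin and FOXO1 targets were called.

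Clpx, the unfoldase of the mitochondrial ClpXP protease, measured 91.1, 88.2 and 68.2 RPKM in 56Fe and 38.7, 26.8 and 39.6 in 28Si (2.11-fold higher, adjusted p = 0.0051), and its call held without any 1 library. The call was lost with the percentage of pairs on transcripts as a covariate (adjusted p = 0.065). Osgin1, an oxidative stress-induced gene, measured 46.97, 50.2 and 47.7 against 16.5, 19.02 and 18.6 RPKM (2.38-fold higher, adjusted p = 0.023). Atoh8, a helix-loop-helix factor that induces hepcidin, was 2.62-fold higher, St5 2.37-fold, Ypel2 2.09-fold and Cpeb2, which binds the ends of messenger RNAs, 2.02-fold higher. The calls of Osgin1, Atoh8, St5, Ypel2 and Cpeb2 were each lost without 28Si replicate 1 or 56Fe replicate 1 or 2, with adjusted p up to 0.164. All but Osgin1 were also lost without 28Si replicate 2, all but St5 without 56Fe replicate 3, and Ypel2 without 28Si replicate 3, 16O replicate 1 or control replicate 3. Nmrk1, a nicotinamide riboside kinase of the NAD+ pathway, was 2.69-fold lower in 56Fe, at 1.70, 2.63 and 3.89 against 6.16, 5.02 and 8.46 RPKM (adjusted p = 0.037), a call lost without any 28Si replicate or 56Fe replicate 1 or 2.

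**Figure D3:**
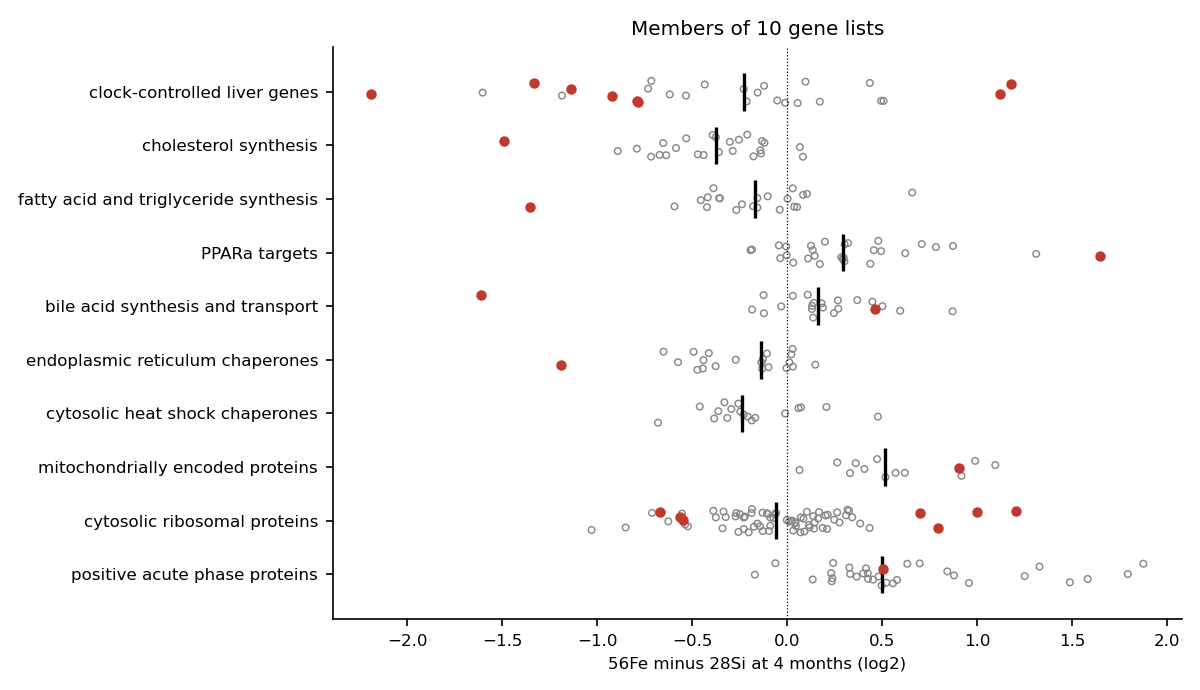
Difference between 56Fe and 28Si at 4 months (horizontal axis, log2 scale) for each tested member of 10 gene lists. Red points are members with adjusted p of at most 0.05, open points the others, and black bars list medians. The median is -0.38 for cholesterol synthesis and 0.52 for the proteins encoded by the mitochondrial genome.

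Among the mitochondrially encoded proteins, all 13 members were above 0, with a median of 0.52, and 1 was called. That was mt-Atp6, a subunit of ATP synthase, at 1625, 2015 and 1919 RPKM in 56Fe and 973, 619 and 1124 in 28Si (1.87-fold higher, adjusted p = 0.049). Its call was lost without any 1 of the 6 irradiated livers or control replicate 3 (adjusted p up to 0.195), and the 16O livers held 1042 ± 211 RPKM (SD, n = 3). mt-Atp8 (1.09, adjusted p = 0.059) and mt-Nd4l (0.99, adjusted p = 0.072) had the largest differences of the list without a call. Of 71 nuclear genes of oxidative phosphorylation, Ndufb4 and Ndufc1, both of complex I, were called higher (1.64- and 1.45-fold) and 0 lower, with a median of 0.03. The shares over all genes tested were 0.404% higher and 0.577% lower. Both calls were lost without 28Si replicate 1 or 2 or any 56Fe replicate, and that of Ndufb4 also without 28Si replicate 3 or 16O replicate 1 (adjusted p up to 0.164).

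Cytosolic ribosomal proteins moved in both directions. Of 76 genes, 4 were called higher and 3 lower in 56Fe, against 0.404% and 0.577% of all genes tested. The median was -0.06. Rpl38, of the large subunit, measured 93.0, 92.6 and 73.6 RPKM in 56Fe and 34.4, 28.8 and 37.1 in 28Si (2.30-fold higher, adjusted p = 5.0e-04). Rpl24 was 2.00-fold higher, Rps29 1.74-fold and Rpl31 1.62-fold. Lower were Rpl10 (1.59-fold), Rps3a1 (1.48-fold) and Rpl13a (1.46-fold). For Rpl38, Rps29 and Rpl31 the 56Fe livers were near the controls (-0.02, -0.09 and -0.13 on the log2 scale) and the 28Si livers below them (-1.23, -0.89 and -0.83, adjusted p = 6.1e-04, 0.013 and 0.0021). The calls of Rpl38 and Rpl31 held without any 1 library, whereas those of Rpl10, Rpl13a, Rpl24, Rps29 and Rps3a1 were each lost without 28Si replicate 1 or 56Fe replicate 2 or 3, with adjusted p up to 0.175. All but Rps29 were also lost without 28Si replicate 2, Rpl10 and Rps3a1 without 28Si replicate 3, Rpl10, Rpl13a and Rps29 without 56Fe replicate 1, and Rpl13a without control replicate 1 or 3. The call of Rpl31 was lost in the fit of all 60 libraries (adjusted p = 0.0995) and with the percentage of pairs on transcripts as a covariate. Ribosomal protein genes have many processed copies in the genome, and reads shared with these could not be separated.

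The lists of stress and immune genes gave few calls. Of 21 endoplasmic reticulum chaperone genes, Creld2, which is induced by unfolded proteins, was called, at 24.7, 39.3 and 44.7 RPKM in 56Fe against 74.1, 59.3 and 83.6 in 28Si (2.29-fold lower, adjusted p = 0.039). This call was lost without any 1 of the 6 irradiated livers (adjusted p up to 0.143), and the median of the list was -0.14. Of 18 cytosolic chaperones, 14 lay below 0 and 0 were called. Of 33 positive acute phase proteins, 31 were above 0 with a median of 0.50, and C9, of the terminal complement complex, was called (1.42-fold higher, adjusted p = 0.028, lost without any 1 of the 6 irradiated livers). Saa1 and Saa2, serum amyloid A proteins, differed by 1.79 and 1.87 with adjusted p = 0.64 and 0.74. Of 31 interferon-induced genes, 24 NF-κB and cytokine genes, 15 p53 targets and 27 DNA repair genes, 0 were called by limma, and 2, 1, 2 and 5 had an unadjusted p under 0.05, against 1940 of the 11620 genes tested. Gpt2, which makes glutamate and pyruvate from alanine, was called lower (1.37-fold) with overlapping raw values, and Notum, an inhibitor of Wnt signalling and a pericentral gene, was 1.55-fold lower. Both calls were lost without 28Si replicate 1 or 2 or any 56Fe replicate, and that of Notum also without 28Si replicate 3 (adjusted p up to 0.142).

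Markers of the hepatocyte dominated, with summed levels of 40960 to 48510 RPKM in 56Fe and 28840 to 44150 in 28Si. All sums given here are of RPKM as deposited, without the scaling of the fits. That scaling divided 28Si replicates 1, 2 and 3 by 0.956, 0.745 and 1.055, and the 56Fe libraries by 1.007 to 1.029. Of 10 lists of cell type markers, 0 had a called member. Kupffer cell markers summed to 182 to 249 RPKM in 56Fe and 131 to 181 in 28Si, with 13 of 14 tested members above 0. Neutrophil markers summed to 2.40 to 15.1 and 2.15 to 6.13 RPKM, with 4 of 10 tested and all 4 above 0 (S100a8 1.05, adjusted p = 0.57). Erythroid markers summed to 150 to 551 RPKM in 56Fe and 142 to 157 in 28Si. T and NK cell markers summed to at most 3.51 RPKM and B and plasma cell markers to at most 2.56 in any of the 6 libraries. In a piece of tissue, fewer cells of a type and less RNA per cell cannot be told apart, and the part these cells have in the differences was not tested.

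Single transcripts differed where their genes did not. Of 26850 transcripts tested, 135 were counted as different (0.503%), 69 higher and 66 lower in 56Fe, from 128 genes, of which 24 were also counted as genes. The transcript Hsd11b1 ENSMUST00000161737, of the enzyme that reactivates glucocorticoids, measured 64.1, 81.1 and 65.4 RPKM in 56Fe and 9.61, 7.79 and 14.1 in 28Si. It was 2.58 ± 0.15 (SE) higher on the log2 scale (adjusted p = 1.6e-05), while the Hsd11b1 gene total differed by -0.07 (adjusted p = 0.83). The most abundant transcript, ENSMUST00000016338, measured 143, 134 and 116 RPKM in 56Fe and 178, 147 and 232 in 28Si. A transcript of Uox, urate oxidase, ENSMUST00000199489, was at 67.2, 70.3 and 68.4 against 10.4, 4.13 and 5.69 RPKM (3.25 on the log2 scale, adjusted p = 0.0025), with a gene total difference of -0.11. The retained-intron transcript of Cox7b, of cytochrome oxidase, ENSMUST00000155377, was at 15.1, 9.36 and 28.3 against 0.631, 0.393 and 0.170 RPKM (4.95, adjusted p = 0.0023), with 0.15 for the gene. A lack of overlap between the groups was part of the rule for naming transcripts and is therefore a description here. In all 3 cases the call held without any 1 library.

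A processed transcript of Dnajc15 was also higher in 56Fe, by 2.46 on the log2 scale, and a transcript of Abcd3, a peroxisomal transporter, marked for nonsense-mediated decay, was 3.21 lower (adjusted p = 0.014, lost without 28Si replicate 2 or 56Fe replicate 1 or 2). Of 3810 retained-intron transcripts, 16 were counted as higher and 5 as lower, with a median of 0.19. Both directions together came near the share over all 26850 transcripts, which was 0.503%, with a median of 0.013. In Rps14, a ribosomal protein gene, ENSMUST00000025511 measured 147, 136 and 116 RPKM in 56Fe and 243, 223 and 261 in 28Si. ENSMUST00000137400 of the same gene measured 135, 115 and 93.5 against 43.9, 22.7 and 45.5 RPKM. These were 1.05 lower and 1.48 higher in 56Fe, respectively (adjusted p = 0.0079 and 0.0096), and the gene total differed by -0.34 (adjusted p = 0.22). Among the 128 genes, 2 had counted transcripts in both directions, Rps14 and Osbpl11. For Hsd11b1, Uox, Cox7b and Dnajc15 the control mean was nearer to 56Fe than to 28Si, and the Uox transcript averaged 39.98 RPKM in controls and 103 in 16O. With limma-voom on estimated reads the calls of the Cox7b, Dnajc15 and Abcd3 transcripts were lost (adjusted p = 0.40, 0.10 and 0.061).

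**Figure D4:**
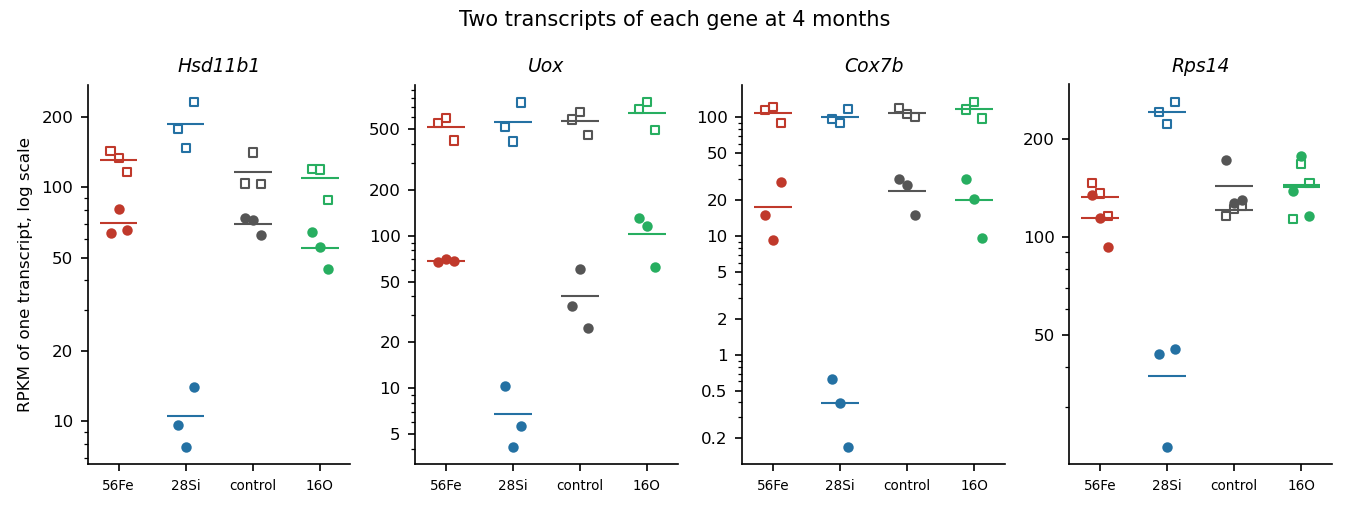
RPKM on a log axis of a pair of transcripts from each of 4 genes in each liver at 4 months. Open squares are ENSMUST00000016338, ENSMUST00000029837, ENSMUST00000033582 and ENSMUST00000025511, filled circles ENSMUST00000161737, ENSMUST00000199489, ENSMUST00000155377 and ENSMUST00000137400, for Hsd11b1, Uox, Cox7b and Rps14 in that order, and lines are means over 3 mice. The filled circles are low in 28Si in all 4 genes.

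Whether the difference between the ions belonged to 4 months was tested as the difference at 4 months minus the mean of those at 1, 2, 9 and 12 months, over all 60 libraries. Of 12731 genes, 22 were counted (0.173%), 12 with a larger and 10 with a smaller value at 4 months. Usp2 had the largest value, -3.24 ± 0.66 (SE) on the log2 scale (adjusted p = 0.016). The 56Fe minus 28Si difference of Usp2 was 3.32 at 1 month, -0.17 at 2 months, -2.14 at 4 months, 1.11 at 9 months and 0.14 at 12 months. At 1 month the 28Si livers averaged 0.272 RPKM of Usp2 and the 56Fe livers 2.56, and at 4 months they averaged 2.31 and 0.542, so the ion with the low level changed. Ciart gave -2.65 (adjusted p = 0.0029), with 2.60 at 1 month and -1.84 at 4 months. Arntl, its opposite in phase, gave 2.23 (adjusted p = 0.013), with -2.47 at 1 month and 1.61 at 4 months.

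Of the 22 genes, 21 had opposite signs at 1 and at 4 months, which the test itself favours, since the 1-month difference enters it. Per3 gave -1.74, Clpx 1.64, Insig2 1.62 and Pdk4 1.96 (adjusted p = 0.031, 8.0e-05, 7.8e-04 and 0.045), and Ccne2, a cyclin of the G1/S transition, gave -1.97 (adjusted p = 0.026). Coq10b gave -1.47, Per2 -1.19, Ypel2 1.25 and St5 1.45 (adjusted p = 0.016, 0.045, 0.013 and 0.049). Clock gave 0.79 (adjusted p = 0.0029), below the fold of 2. When the 1-month livers were set aside, 3 genes were counted, Dtx4, Clpx (1.30, adjusted p = 0.024) and Insig2 (1.32, adjusted p = 0.048), while Usp2, Ciart, Arntl, Ccne2, Pdk4 and Per3 had adjusted p between 0.145 and 0.347. For Alas1, Fgf21 and Cyp7a1 the test did not pass the threshold (adjusted p = 0.085, 0.059 and 0.79).

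**Figure D5:**
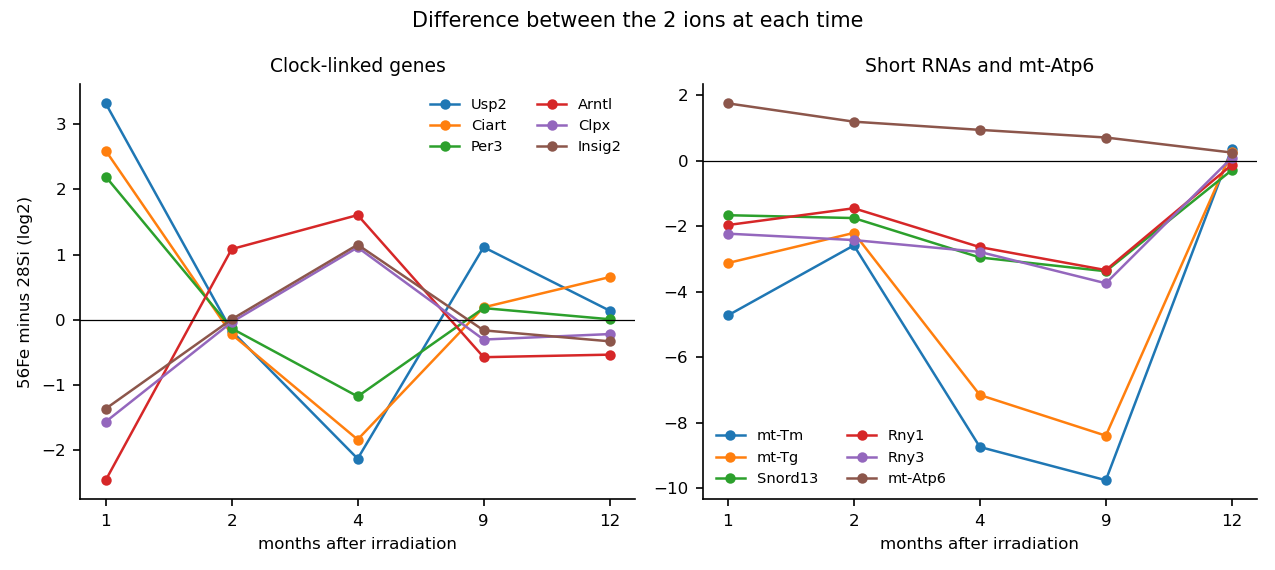
Difference between 56Fe and 28Si (vertical axis, log2 scale) at 1, 2, 4, 9 and 12 months, evenly spaced, from the fit of all 60 libraries. Left, Usp2, Ciart, Per3, Arntl, Insig2 and Clpx, with Usp2 at 3.32 at 1 month and -2.14 at 4 months. The panel heading calls them clock-linked, but Clpx was on none of the gene lists. Right, 5 short RNAs and mt-Atp6, with the short RNAs below 0 up to 9 months and between -0.29 and 0.37 at 12 months.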

How the data were processed

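The deposited table held RPKM per Ensembl transcript. Per the paper's methods, the authors trimmed 14 bases, mapped the read pairs (50 bases per the labels) to GRCm38 (Ensembl annotation 97) and tested raw counts with edgeR. Those counts and 20 columns of group means were not used here. RPKM was summed over the 123811 transcripts of 38204 genes, and a pseudocount of 0.1 was added before taking log2. Linear models of limma 3.58.1 with a mean-variance trend (R 4.3.3) used the 12 livers of 4 months, 8 residual degrees of freedom, after scaling by a trimmed mean (30% of differences, 5% of levels) and a filter of 0.5 RPKM in 3 libraries. A fold therefore refers to the log2(RPKM + 0.1) scale, which understates changes of low genes. P-values were adjusted over all genes by Benjamini-Hochberg. Depth was recovered from the steps of low RPKM values, of which at least 99.8% were whole reads within 0.02 in the 4-month libraries. The fit was also run on simulated data with known changes. Genes were named by size of difference, membership of 41 functional or 10 marker lists, or the test against other times. Members and lists were chosen with earlier results of these data known. Alternatives covered scaling, pseudocount, filter, samples, a replicate block, limma-voom on estimated reads and, chosen after seeing the data, a covariate, genes of at least 300 bases and leaving out 1 month. Some genes and sequences that the rule admits are not reported here.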

Additional observations from a re-analysis of the deposited data

Results flagged for a closer look

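The difference between 56Fe and 28Si at 4 months departed from the mean of the differences at 1, 2, 9 and 12 months in a test of that departure itself for 13 named genes. On the log2 scale it was -3.24 for Usp2, -2.65 for Ciart, -1.97 for Ccne2, -1.74 for Per3, -1.47 for Coq10b and -1.19 for Per2. It was 2.23 for Arntl, 1.96 for Pdk4, 1.64 for Clpx, 1.62 for Insig2, 1.45 for St5, 1.25 for Ypel2 and 0.79 for Clock. Coq10b, which binds coenzyme Q, went from 0.951 at 1 month to -1.11 at 4 months, and Clpx, of the mitochondrial ClpXP protease, from -1.57 to 1.11. Without the 1-month livers only Clpx and Insig2 of the 8 genes with the largest values stayed past the threshold.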

How the results depend on the processing

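Of 55 named genes and transcripts past the threshold, none changed direction in any alternative, 54 stayed past it with RLE scaling, upper-quartile scaling or a pseudocount of 1, 49 with a pseudocount of 0.01, 52 with the 6 libraries of the ions alone, 42 with limma-voom, 41 with values as deposited, 36 without a filter, 27 in the fit of all 60 libraries and 16 with the percentage of pairs on transcripts as a covariate. The count of 47 genes became 71 with values as deposited, 71 without a filter, 82 with the 6 libraries and 14 with that covariate, and ranged from 15 to 61 without 1 library. The count of 135 transcripts became 78 with the 6 libraries, 45 with limma-voom and 60 with the covariate, and ranged from 59 (without 56Fe replicate 2) to 154 (without 16O replicate 3). The 22 genes of the test against the other times became 12 with values as deposited, 13 with a pseudocount of 1, 11 without a filter and 3 against 2, 9 and 12 months, and ranged from 4 (without 56Fe replicate 2) to 17. The count of 14 between 28Si and control became 28 with values as deposited. The causes were not tested.

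Deviations of same-numbered 56Fe and 28Si livers from their group means had correlations of -0.031, 0.008 and 0.094. Those of differently numbered livers lay between -0.085 and 0.081. Such values from 3 mice per group cannot decide whether the numbers pair the mice. With the replicate block the counts were 36 genes, 97 transcripts and 14 genes against the other times.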

Other observations

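Genes of cell division leaned lower in 56Fe. Of 22 tested, 20 lay below 0, with a median of -0.43 on the log2 scale, and Wee1 alone was called. Hmox1, which breaks down haem, measured 11.3, 8.93 and 8.08 RPKM in 56Fe and 3.36, 3.13 and 4.58 in 28Si. It had no overlap, like 17.8% of all genes tested, but missed the threshold (1.17 on the log2 scale, adjusted p = 0.057). Of 37 complement and coagulation genes, 29 lay above 0 and C9 was called, and 13 of 16 immediate early genes lay above 0 with a median of 0.42 and 0 called.

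Gpt2 was the call among 14 gluconeogenesis and 14 ATF4 stress genes, and Notum among 18 pericentral genes. There was no call among the lists for D-box factors, haem breakdown, growth hormone and IGF-1, glucocorticoid targets, NRF2, metallothioneins, negative acute phase proteins, CAR and PXR targets, AHR targets, clock-linked P450 genes, LXR targets, periportal genes, major urinary proteins, B cell receptor signalling and iron handling, whose medians lay between -0.16 and 0.22.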
